A study of Arabidopsis thaliana with 9 samples.

Results

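The SQUAMOSA PROMOTER-BINDING PROTEIN-LIKE (SPL) genes described here are the 10 Arabidopsis thaliana members whose messenger RNA is a known target of the microRNA miR156, namely SPL2, SPL3, SPL4, SPL5, SPL6, SPL9, SPL10, SPL11, SPL13A and SPL15. They were found by locus code among the 22903 genes listed in the files, and all 10 were present. RNA was sequenced from whole seedlings, 14 days old, raised on 1/2 MS medium with 16 h of light and 8 h of dark, in aar2-1 mutants, aar2-2 mutants and wild type (WT), with 3 biological replicates of each genotype. The mutants carry alleles of AAR2 (AT1G66510), whose protein in yeast helps to assemble the U5 small nuclear ribonucleoprotein of the spliceosome. What each allele changes in the gene, and the wild-type accession, are not given in the sources used here. The question put to the data is how each SPL gene stood in aar2-1 and in aar2-2 against WT, and in the mutants against each other.

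SPL proteins are plant transcription factors that bind DNA through the SBP domain. In young seedlings miR156 is abundant and holds most of the family down, by cleavage of the messenger RNA and by blocking its translation. As the shoot ages miR156 declines, SPL activity rises, and the plant passes from juvenile to adult leaves and later becomes competent to flower. Because miR156 can act on translation, the level of an SPL messenger RNA is not a direct reading of the protein.

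The pairing of the microRNA with its targets is shown first, since it defines the set. The mature microRNAs below are from the TAIR10.1 annotation of RefSeq, with the seed (bases 2 to 8) in capitals. The first sequence is shared by 6 loci, miR156a to miR156f, and the last by 3 loci, miR157a to miR157c.
miR156a-5p: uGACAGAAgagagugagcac
miR156g: cGACAGAAgagagugagcac
miR156h: uGACAGAAgaaagagagcac
miR156i: uGACAGAAgagagagagcag
miR156j: uGACAGAAgagagagagcac
miR157d: uGACAGAAgauagagagcac
miR157a-5p: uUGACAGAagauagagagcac
The miR156 sequences and miR157d carry the same seed. miR157a to miR157c start with an additional u, so that bases 2 to 8 are shifted by 1 position along the same run.

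The best site for miR156a in the messenger RNA of each member was read from the TAIR10.1 genome. The sites below are written 5′ to 3′ on the strand of the gene, and capitals mark bases that do not pair with miR156a by Watson-Crick rules.
SPL2, SPL6, SPL9, SPL10, SPL11, SPL13A and SPL15: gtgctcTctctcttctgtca
SPL3: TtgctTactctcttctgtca
SPL4: CtgctcTctctcttctgtca
SPL5: CCgctcTctctcttctgtca
The first site was identical in 7 members, with 1 mismatch, and lay in coding sequence in each of them. For SPL10 this held in 6 of its 7 annotated mRNAs, and in the other the same bases fell in the 3′ UTR. In SPL3, SPL4 and SPL5 the site lay in the 3′ UTR, starting 50, 10 and 7 bases past the last coding base, and had 2, 2 and 3 mismatches. Of the mismatches of SPL3, 1 was a G:U pair. Of the 3 annotated mRNAs of SPL4, 1 held the site, and the fewest mismatches in the others was 8.

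In TAIR10.1 the site of SPL2 (AT5G43270) is at chr5:17360758-17360777 on the minus strand. That of SPL4 (AT1G53160) is at chr1:19807090-19807109 on the plus strand, and that of SPL9 (AT2G42200) at chr2:17589066-17589085 on the plus strand. The annotated mature miR156i occupies the same 20 bases as the SPL4 site on the other strand, and miR156j the same bases as the SPL9 site. In its longest mRNA SPL2 has 4 introns, SPL3, SPL4 and SPL5 have 1 each, and the other members have 2 or 3. The map of the sites along the messenger RNAs shows the difference in place between the small SPL genes and the other members.

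**Figure D1:**
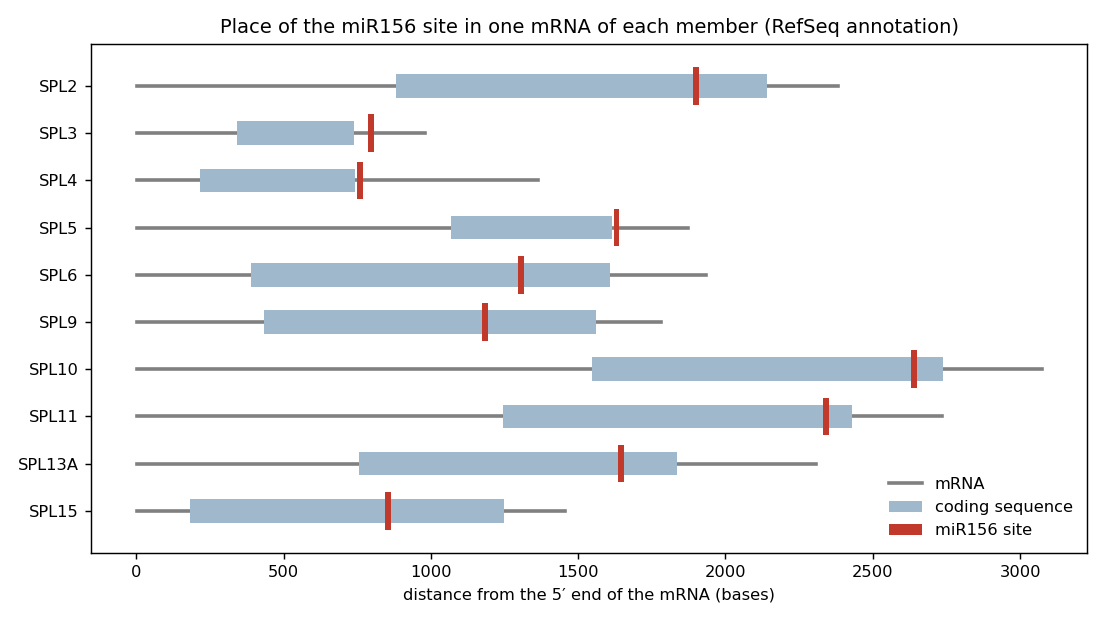
Place of the miR156 site (red) in a representative mRNA of each member, with the coding sequence in blue and distance from the 5′ end in bases on the horizontal axis. The site falls inside the coding sequence of 7 members and just past it, 7 to 50 bases downstream, in SPL3, SPL4 and SPL5.

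Levels are given as CPM, in which each library is scaled to its own total over genes, and whole reads could be recovered from them. Between 24471217 and 35266334 reads were counted over genes per library, and the 6 mutant libraries were all deeper than the 3 WT libraries, so depth and genotype cannot be told apart by grouping libraries. AAR2 had 7.33, 5.49 and 5.3 CPM in aar2-1, 5.28, 4.36 and 4.11 CPM in aar2-2, and 7.64, 7.11 and 8.27 CPM in WT. Its log2 fold change was -0.31 in aar2-1 (adjusted p = 0.101, and 0.0377 without aar2-1 replicate 1) and -0.64 in aar2-2 (adjusted p = 0.00908), so the labels of the aar2-1 libraries are not checked by this gene. Leaf genes were abundant in every library. RBCS1A had 22009 to 24483 CPM in aar2-1, 23613 to 26096 CPM in aar2-2 and 19683 to 20165 CPM in WT. The root genes PIN2 and COBL9 reached at most 1.06 and 0.49 CPM. By these root genes, little root RNA was seen in any library, although the material is described as whole seedlings. LHCB1.3, also a leaf gene, had 11260 to 12128 CPM in aar2-1, 8211 to 11360 CPM in aar2-2 and 12673 to 17016 CPM in WT. The leaf genes thus went opposite ways, RBCS1A above WT and LHCB1.3 below it in both mutants. For LHCB1.3 the log2 fold change was -0.27 in aar2-1 (limma adjusted p = 0.244) and -0.52 in aar2-2 (0.0455). For RBCS1A it was 0.22 (0.261) and 0.31 (0.133). The part of either leaf gene in the results was not tested. In bulk seedlings, fewer cells of a type and less RNA per cell cannot be told apart.

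Of the 10 members, 2 rose and 1 fell in aar2-1, and 2 rose and 0 fell in aar2-2. A gene was called at a limma adjusted p under 0.05, with p adjusted over the 18838 genes that reached an average of 1 CPM over the libraries. All 10 members did. The aar2-1 background over all genes tested was 25.1% called, made up of 11.5% above and 13.6% below WT. For aar2-2 it was 21.5%, made up of 12.1% above and 9.4% below, so the share of members called lies near the background. The aar2-2 calls over all genes were 2276 higher and 1770 lower on the CPM as deposited, and 1917 higher and 2290 lower after TMM scaling. The median log2 fold change of the members was 0.05 in aar2-1 and 0.19 in aar2-2, against -0.004 and 0.032 over all genes tested. Leaving out a library took the members' median from -0.024 (without aar2-1 replicate 2) to 0.130 (without aar2-1 replicate 1) in aar2-1, also to 0.001 without WT replicate 3, 0.082 without WT replicate 1 and 0.097 without WT replicate 2. In aar2-2 it gave 0.107 without aar2-2 replicate 3 and at most 0.242. Both comparisons use the same 3 WT libraries. SPL2 and SPL4 rose in both mutants, 2 of 10 members, against 6.4% of all genes tested that were called higher in both.

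SPL2 was the member with the largest change. It belongs with SPL10 and SPL11 to a branch of the family that shapes leaves and acts in embryos and flowers. SPL2 had 43.1, 39.9 and 50.2 CPM in aar2-1, 30.7, 33.6 and 33.7 CPM in aar2-2, and 19.7, 18.2 and 20.9 CPM in WT, resting on 481 to 1572 reads per library. No library of either mutant overlapped WT, and every aar2-1 library was above every aar2-2 library. The log2 fold change was 1.14 in aar2-1 (SE 0.09, 95% interval 0.94 to 1.34, adjusted p = 0.000215), with a ratio of mean CPM of 2.27. In aar2-2 it was 0.71 (SE 0.09, 95% interval 0.51 to 0.91, adjusted p = 0.00156), with a ratio of 1.67. An exact two-sided permutation test gave p = 0.1 for each, the smallest that 3 against 3 libraries can give. SPL2 shares no exonic base with an annotated gene on the other strand, and none of its 50-base stretches occurs elsewhere in the genome.

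**Figure D2:**
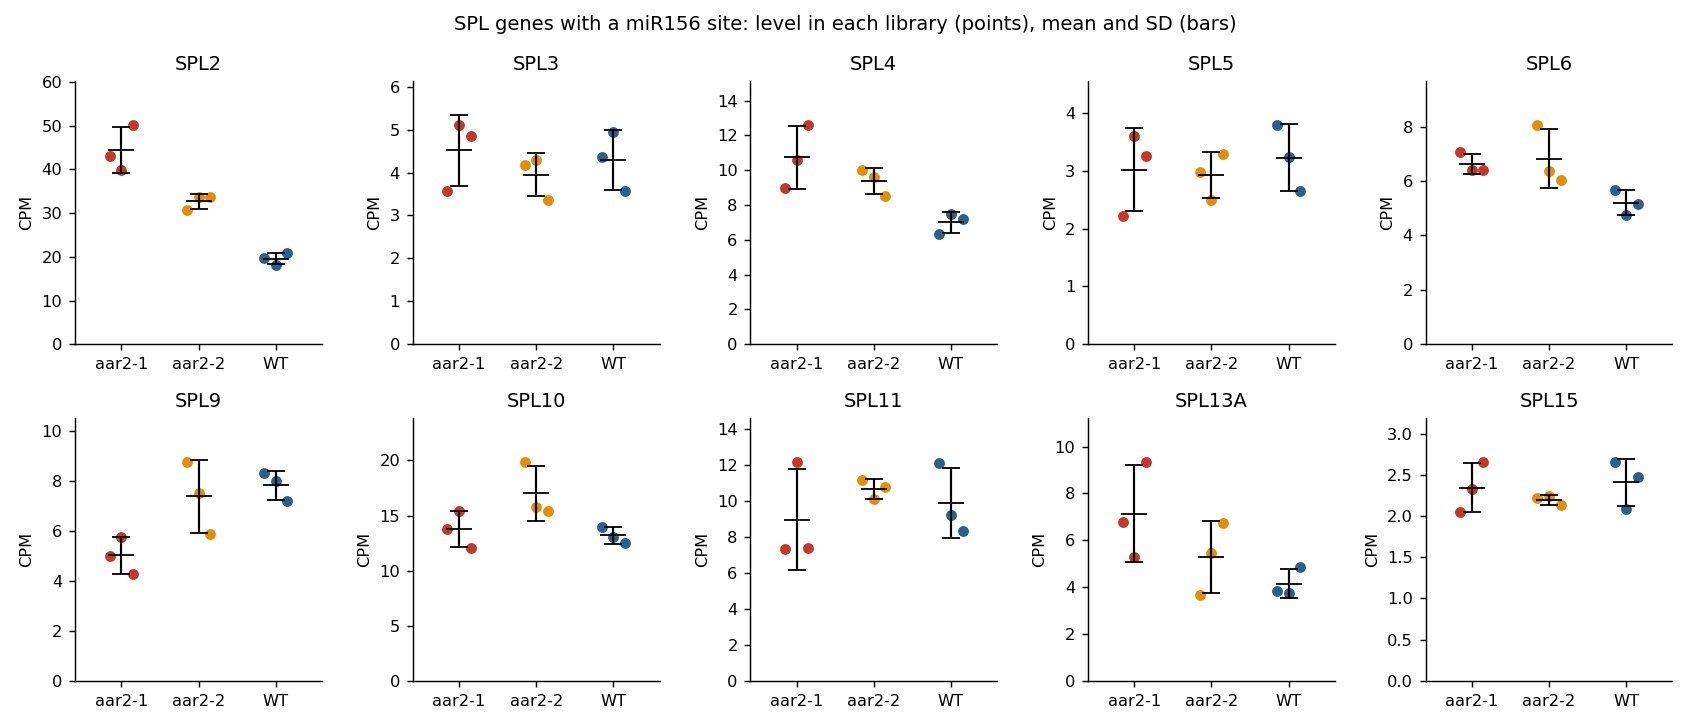
CPM of each member in every library (points) for aar2-1, aar2-2 and WT, with the mean and SD (bars, n = 3), each panel on its own axis from 0. The 6 mutant libraries lie above the 3 WT libraries for SPL2, SPL4 and SPL6, while for SPL9 the aar2-1 libraries lie below both other groups.

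The small SPL genes, SPL3, SPL4 and SPL5, encode short proteins with little beyond the DNA-binding domain and promote the floral transition. SPL4 was the only one of them called. It had 9, 10.6 and 12.6 CPM in aar2-1, 10, 9.62 and 8.53 CPM in aar2-2, and 6.33, 7.47 and 7.18 CPM in WT, so that every mutant library was above every WT library. The log2 fold change was 0.54 in aar2-1 (SE 0.12, adjusted p = 0.0105) and 0.38 in aar2-2 (SE 0.12, adjusted p = 0.0469). The aar2-2 call was lost under 13 of 18 alternative analyses, where the adjusted p over all alternatives ranged from 0.0245 to 0.153 and the log2 fold change from 0.32 to 0.44. These included leaving out any WT or aar2-2 library, or aar2-1 replicate 2. The exons of SPL4 share 14.4% of their bases with the MIR156i precursor on the other strand.

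SPL3 averaged 4.51 ± 0.82 CPM in aar2-1, 3.95 ± 0.50 CPM in aar2-2 and 4.29 ± 0.70 CPM in WT (SD, n = 3 each). Its log2 fold changes were 0.06 (95% interval -0.26 to 0.38) in aar2-1 and -0.09 (-0.41 to 0.23) in aar2-2. SPL5 had 2.22 to 3.6 CPM in aar2-1, 2.5 to 3.29 CPM in aar2-2 and 2.65 to 3.8 CPM in WT, with log2 fold changes of -0.08 and -0.10. Libraries of these 2 genes overlapped between all genotypes. SPL3 shares 97.3% of its exonic bases with AT2G33815 on the other strand, and SPL5 shares 25.5% with AT3G15260, annotated as a protein phosphatase 2C. The kit named in the labels does not mark the strand, so reads of such pairs cannot be told apart. AT3G15260, at 23.4 CPM in aar2-1, 25.8 CPM in aar2-2 and 28.7 CPM in WT, fell in aar2-1 (log2 fold change -0.28, adjusted p = 0.0233), and its part in the SPL5 counts was not tested.

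SPL9 and SPL15 are a closely related pair that sets the pace of leaf initiation and the change from juvenile to adult leaves. SPL9 had 5.01, 5.76 and 4.28 CPM in aar2-1, 8.77, 7.5 and 5.87 CPM in aar2-2, and 8.3, 8.01 and 7.18 CPM in WT. The aar2-1 libraries were below all libraries of both other genotypes, whereas aar2-2 overlapped WT. SPL9 fell in aar2-1 by the test, its log2 fold change being -0.56 (SE 0.14, 95% interval -0.87 to -0.25, adjusted p = 0.0173). The adjusted p was 0.0671 without WT replicate 1, 0.0505 without aar2-1 replicate 1 and 0.0506 without aar2-1 replicate 3. In aar2-2 the log2 fold change was -0.09 (95% interval -0.40 to 0.22, adjusted p = 0.679).

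SPL15 was the lowest member, with 58 to 83 reads per library. It averaged 2.34 ± 0.30 CPM in aar2-1, 2.20 ± 0.06 CPM in aar2-2 and 2.41 ± 0.29 CPM in WT (SD, n = 3 each), and the libraries of all genotypes overlapped. The log2 fold changes were -0.03 (95% interval -0.27 to 0.22) and -0.09 (-0.33 to 0.16). All of its exonic bases overlap AT3G57910, annotated as a G-patch domain protein, on the other strand. That gene averaged 7.23 CPM in aar2-1, 7.26 CPM in aar2-2 and 6.82 CPM in WT and was not called in either mutant.

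SPL10 and SPL11, the nearest relatives of SPL2, lie side by side on chromosome 1 in opposite directions. SPL10 had 13.8, 15.4 and 12.1 CPM in aar2-1, 19.9, 15.8 and 15.4 CPM in aar2-2, and 14, 13.1 and 12.5 CPM in WT. The aar2-2 libraries were all above WT and the aar2-1 libraries overlapped both. The log2 fold change in aar2-2 was 0.34 (SE 0.11, adjusted p = 0.0601) and in aar2-1 0.05 (SE 0.11, adjusted p = 0.775), neither of them called. The aar2-2 value passed under 4 of 18 alternatives, with adjusted p from 0.0396 to 0.181 over all of them. Among those 4 were leaving out aar2-1 replicate 2 (adjusted p = 0.0496) or aar2-1 replicate 3 (0.0415). These libraries are outside the comparison, and the log2 fold change stayed at 0.34 without either. SPL11 had 7.33, 12.2 and 7.38 CPM in aar2-1, 11.2, 10.1 and 10.8 CPM in aar2-2, and 12.1, 9.24 and 8.35 CPM in WT, with overlap throughout. Its log2 fold changes of -0.15 (95% interval -0.55 to 0.25) and 0.12 (-0.28 to 0.52) were not called. SPL2, SPL10 and SPL11 thus carry the same site but only SPL2 was called, and this contrast between genes was not tested.

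SPL6, which is known for a role in immunity, had 7.06, 6.41 and 6.39 CPM in aar2-1, 8.06, 6.36 and 6.04 CPM in aar2-2, and 5.68, 4.76 and 5.15 CPM in WT. All 6 mutant libraries were above all 3 WT libraries, which held for 13.2% of all genes tested. The log2 fold changes of 0.30 (SE 0.11, adjusted p = 0.0755) and 0.33 (SE 0.11, adjusted p = 0.0607) did not pass the test. Without aar2-2 replicate 1, a library outside this comparison, the aar2-1 log2 fold change stayed at 0.30 but passed, with an adjusted p of 0.0446. SPL13A, a regulator of leaf development and phase change, had 6.79, 5.28 and 9.36 CPM in aar2-1, 3.67, 5.46 and 6.75 CPM in aar2-2, and 3.84, 3.75 and 4.86 CPM in WT. The aar2-1 libraries were above WT and varied widely among themselves, and the aar2-2 libraries overlapped both groups. The aar2-1 fold change on the log2 scale, 0.64 (SE 0.21, adjusted p = 0.0514), passed under 8 of 18 alternatives, with adjusted p from 0.0139 to 0.147 over all of them. Among those 8 were leaving out aar2-1 replicate 2 (0.0233), aar2-2 replicate 1 (0.029) or aar2-2 replicate 3 (0.0414). In aar2-2 it was 0.27 (SE 0.21, adjusted p = 0.393). Every 50-base stretch of SPL13A occurs elsewhere in the genome, where its copy SPL13B lies, and SPL13B is not analysed here, so the level of SPL13A is uncertain.

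Counted by overlap alone, aar2-1 libraries were clear of WT for SPL2, SPL4, SPL6, SPL13A (above) and SPL9 (below), 5 of 10 members against 41.6% of all genes tested. In aar2-2 they were clear of WT for SPL2, SPL4, SPL6 and SPL10, all above, 4 of 10 members against 25.1% of all genes tested that were above. By site, 1 of the 3 members with a 3′ UTR site rose in each mutant. Of the 7 members with a coding site, 1 rose and 1 fell in aar2-1, and 1 rose and 0 fell in aar2-2, beside 25.1% and 21.5% of all genes tested that were called.

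**Figure D3:**
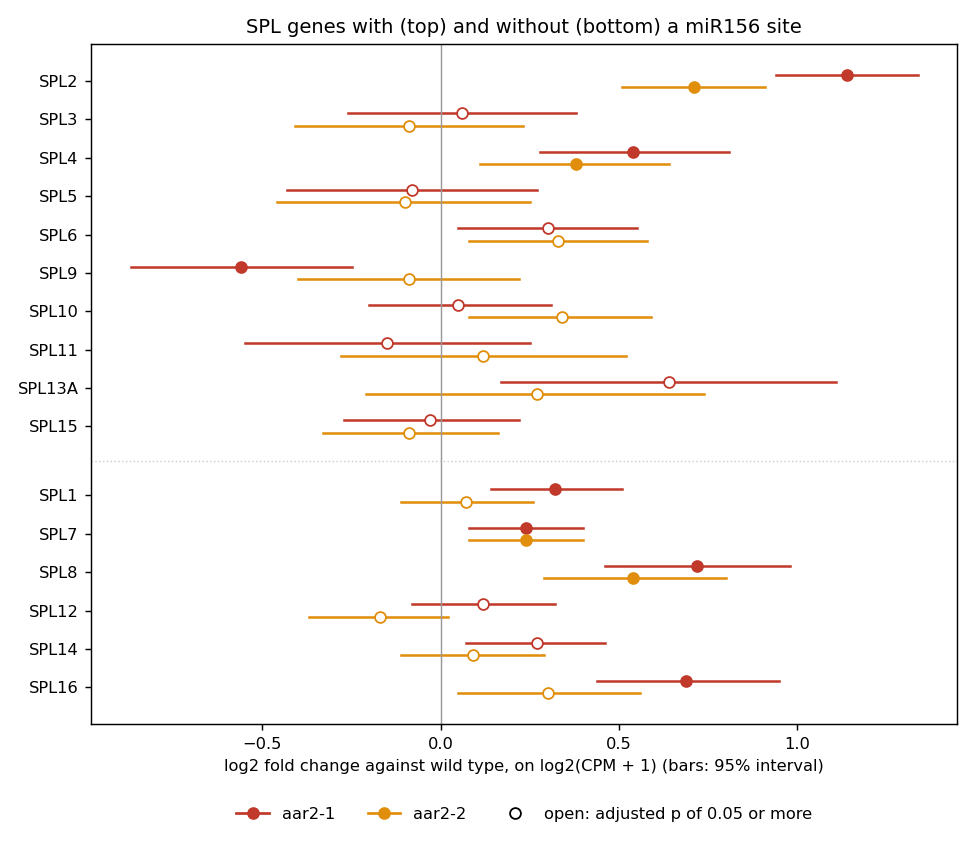
Log2 fold change against WT on log2(CPM + 1) for aar2-1 (red) and aar2-2 (orange), with 95% intervals, filled where the adjusted p was under 0.05. SPL2 stands at 1.14 and 0.71, SPL9 at -0.56 and -0.09, and 4 of the 6 SPL genes without a miR156 site (lower block) were called in aar2-1, at 0.24 to 0.72.

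Between the mutants, 0 of 10 members were called by limma and 0 by edgeR, against 0.0212% of all genes tested by either tool. At an unadjusted limma p under 0.05 there were 3, against 16% of all genes tested. DESeq2 called 1, SPL2, beside 383 genes over all genes tested. For SPL2, aar2-2 minus aar2-1 gave a log2 difference of -0.43 (95% interval -0.63 to -0.22, adjusted p = 0.153). The difference passed under 2 of 18 alternatives, with an adjusted p of 0.00283 by DESeq2 and of 0.049 without aar2-1 replicate 2, and up to 0.451 in the others. For SPL9 it was 0.47 (95% interval 0.16 to 0.78, adjusted p = 0.205), with every aar2-2 library above every aar2-1 library. SPL10, the other member with an unadjusted p under 0.05, gave 0.29 (95% interval 0.03 to 0.54, adjusted p = 0.275). The adjusted p of the other 7 members was at least 0.401. SPL9 passed in aar2-1 and not in aar2-2, yet a difference between the alleles was not shown.

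Levels can be ordered between genes only per length, as CPM per kilobase of exon. SPL2 was the highest member in each genotype, with 17.2 ± 2.04 CPM per kilobase in aar2-1, 12.6 ± 0.65 in aar2-2 and 7.58 ± 0.52 in WT (SD, n = 3 each), and in each its libraries were clear of the next gene, SPL4. In aar2-1 SPL4 followed with 7.86 ± 1.32, then SPL3 with 4.6 and SPL10 with 4.32, which overlapped each other. SPL9 stood eighth there, with 2.82 ± 0.42, and overlapped SPL13A at 2.88. In aar2-2 SPL4 had 6.88 and SPL10 5.35, and neighbours from SPL4 down to SPL6 at 3.53 overlapped. In WT SPL4 had 5.13, SPL9 4.4, SPL3 4.37, SPL10 4.15 and SPL11 3.61, and each overlapped the next. SPL5 and SPL15 were the lowest in both mutants, at 1.62 and 1.61 in aar2-1 and at 1.56 and 1.51 in aar2-2, where SPL13A at 2.13 overlapped SPL5. In WT, SPL5 at 1.73, SPL13A at 1.67 and SPL15 at 1.65 overlapped. The places of SPL3, SPL5, SPL15 and SPL13A in this order are uncertain. SPL3, SPL5 and SPL15 share 97.3%, 25.5% and 100% of their exonic bases with genes on the other strand. Every 50-base stretch of SPL13A occurs elsewhere in the genome. How far this set their low or middle places was not tested.

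Summed over the 10 members, the libraries held 99.9, 107 and 113 CPM in aar2-1, 102, 97.6 and 95.9 CPM in aar2-2, and 80.7, 74.8 and 74.8 CPM in WT. SPL2 made up 41.6 ± 3.72% of the sum in aar2-1, 33.2 ± 2.65% in aar2-2 and 25.5 ± 2.08% in WT. Without SPL2 the sum was 62.1 ± 4.99 CPM in aar2-1, 65.7 ± 4.65 CPM in aar2-2 and 57.2 ± 3.64 CPM in WT (SD, n = 3 each). The larger part of the difference in the sum was thus SPL2 itself. These sums are a description, without a test.

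**Figure D4:**
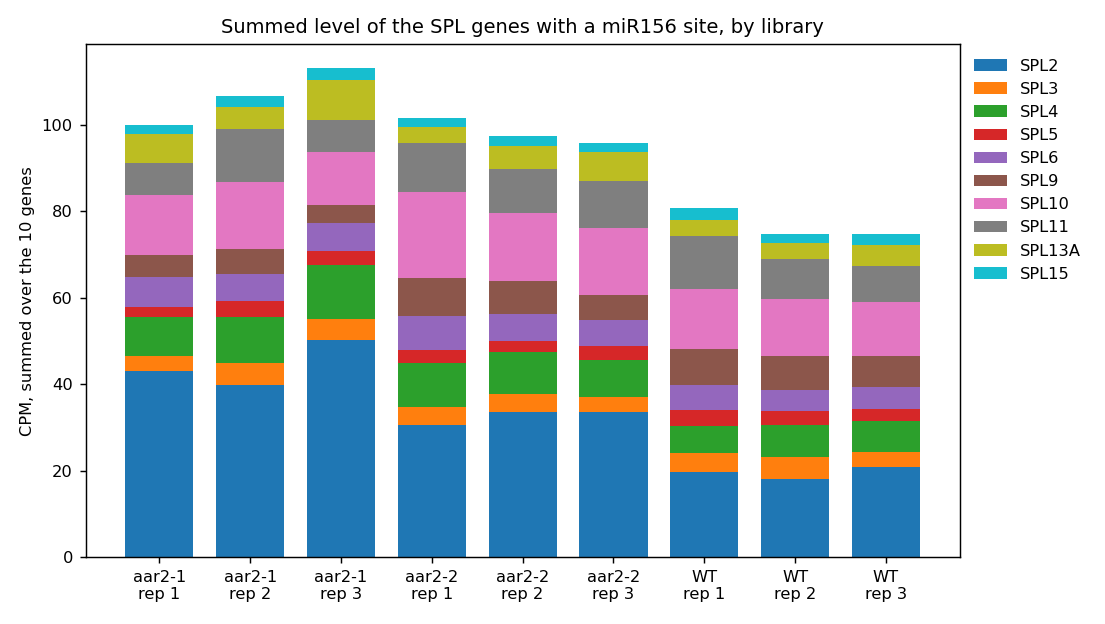
CPM summed over the 10 members in each library, stacked by gene, for aar2-1, aar2-2 and WT. The sums are 99.9 to 113 in aar2-1, 95.9 to 102 in aar2-2 and 74.8 to 80.7 in WT, and the SPL2 segment at the bottom differs most between genotypes.

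The 6 SPL genes of the list without a miR156 site had at best 6 to 8 mismatches to the full complement of miR156a. Of these, 4 rose in aar2-1 and 2 in aar2-2, beside 11.5% and 12.1% of all genes tested that were called higher, and 0 fell in either. SPL8, which acts in anther development, had 5.15, 6.38 and 6.68 CPM in aar2-1, 4.94, 5.64 and 5.1 CPM in aar2-2, and 3.76, 3.18 and 2.9 CPM in WT. Both mutants were clear of WT, and the log2 fold changes were 0.72 (adjusted p = 0.00284) and 0.54 (adjusted p = 0.0117). SPL8 shares 8.4% of its exonic bases with AT1G02067 on the other strand. SPL16 rose in aar2-1, at 43.8 CPM against 26.4 CPM in WT (log2 fold change 0.69, adjusted p = 0.00325), and in aar2-2 had 33 CPM (0.30, adjusted p = 0.0861, and 0.0219 without aar2-1 replicate 3). SPL7, the regulator of copper homeostasis, averaged 35.5 CPM in aar2-1, 35.4 CPM in aar2-2 and 29.9 CPM in WT. Its log2 fold change was 0.24 in both mutants (adjusted p = 0.0349 in aar2-1 and 0.039 in aar2-2), and the call was lost under 7 of 18 alternatives in aar2-1, with adjusted p up to 0.105, and under 12 in aar2-2, up to 0.116. In both mutants these included leaving out any of the 3 WT libraries.

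SPL1, which with SPL12 is known for heat tolerance of inflorescences, averaged 161 CPM in aar2-1, 135 CPM in aar2-2 and 128 CPM in WT. It rose in aar2-1 (log2 fold change 0.32, adjusted p = 0.02, but 0.0776 without WT replicate 1, 0.0584 without WT replicate 2 and 0.0537 without aar2-1 replicate 3) and not in aar2-2 (0.07, adjusted p = 0.561). SPL12 averaged 67.6 CPM in aar2-1, 54.7 CPM in aar2-2 and 61.8 CPM in WT and was not called. SPL14, known for sensitivity to the toxin fumonisin B1, averaged 124 CPM in aar2-1, 110 CPM in aar2-2 and 103 CPM in WT and was not called either. Its adjusted p in aar2-1 was 0.0541 (log2 fold change 0.27) and passed under 5 of 18 alternatives, namely the replicate block (0.0218), DESeq2 (0.0317), and leaving out aar2-1 replicate 2 (0.036), aar2-2 replicate 1 (0.0424) or aar2-2 replicate 3 (0.0379). The median log2 fold change of these 6 genes was 0.29 in aar2-1 and 0.17 in aar2-2, beside 0.05 and 0.19 for the 10 with a site, which moved with single libraries as given above, and the difference between the sets was not tested.

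Among 14 genes known to act downstream of SPL proteins or of the linked microRNA miR172, 11 were above the mean of 1 CPM. Of these, 4 rose and 1 fell in aar2-1, and 5 rose and 1 fell in aar2-2, beside 25.1% and 21.5% of all genes tested that were called. FT, the mobile flowering signal, had 3.27, 3.12 and 3 CPM in aar2-1, 3.8, 3.57 and 3.18 CPM in aar2-2, and 1.72, 1.19 and 1.38 CPM in WT, with log2 fold changes of 0.77 (adjusted p = 0.00179) and 0.90 (adjusted p = 0.0014). LFY, a floral meristem identity gene, had 1.09, 1.41 and 2.2 CPM in aar2-1, 0.957, 1.54 and 1.19 CPM in aar2-2, and 0.327, 0.469 and 0.327 CPM in WT. Both genes were higher in all 6 mutant libraries, and for LFY the log2 fold changes were 0.88 (adjusted p = 0.00628) and 0.69 (adjusted p = 0.0197, but 0.0671 without WT replicate 1 and 0.0564 without WT replicate 3). LFY averaged 1.06 CPM over all libraries but 0.374 CPM in WT, with 8 to 13 reads per WT library. It thus passed the filter through its mutant libraries, and it is counted above among the genes that rose. Of the alternatives, 16 gave a value for LFY, fewer than for FT. LFY is low, so the added pseudocount holds its fold change down. With a pseudocount of 0.1 the log2 fold changes were 1.77 in aar2-1 and 1.48 in aar2-2. By edgeR they were 2.06 and 1.66, and by DESeq2 2.08 and 1.68.

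FUL, a MADS-box gene of the floral transition, averaged 3.48 CPM in aar2-1, 3.37 CPM in aar2-2 and 1.9 CPM in WT. Its log2 fold changes were 0.65 (adjusted p = 0.0212) and 0.62 (adjusted p = 0.0299), and the adjusted p in aar2-1 became 0.0502 without aar2-1 replicate 2 and 0.0581 without aar2-1 replicate 3. In aar2-2 it became 0.0662 without WT replicate 2 and 0.0548 to 0.0947 without any of the aar2-2 libraries. DFR encodes an enzyme of anthocyanin synthesis that SPL9 is known to hold down. It averaged 72.7 CPM in aar2-1, 89.5 CPM in aar2-2 and 30 CPM in WT and rose in both mutants (1.22, adjusted p = 0.00295, and 1.51, adjusted p = 0.00174). AP2, a repressor of flowering and target of miR172, averaged 14.2 CPM in aar2-1, 14.5 CPM in aar2-2 and 18.5 CPM in WT and fell in both (-0.37, adjusted p = 0.0197, and -0.33, adjusted p = 0.0346, reaching 0.0691 and 0.106 without WT replicate 3). The AP2 call was also lost without WT replicate 1 in both mutants, and in aar2-2 without WT replicate 2 or any aar2-2 library. SMZ, another repressor of flowering and target of miR172, named after its value was seen as the remaining call, averaged 6.26 CPM in aar2-1, 8.96 CPM in aar2-2 and 5.39 CPM in WT. It rose in aar2-2 (0.64, adjusted p = 0.0196), opposite to AP2, and was not called in aar2-1 (0.16, adjusted p = 0.475). SMZ shares 30.6% of its exonic bases with AT3G54980 on the other strand, and the part of that gene in the SMZ counts was not tested. SOC1, named here as a well-known target of SPL9, was not called (0.23, adjusted p = 0.158, and 0.21, adjusted p = 0.207). The remaining tested genes of the list, TRY, TOE1, TOE2 and SNZ, named after their values were seen, were not called in either mutant. TRY averaged 1.48 CPM in aar2-1, 1.8 CPM in aar2-2 and 2.45 CPM in WT (-0.50, adjusted p = 0.0808, and -0.32, adjusted p = 0.255). Its aar2-1 libraries were all below WT.

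The other 3 genes of the list were below the mean of 1 CPM and are named after their values were seen. AP1, the floral identity gene that small SPL proteins are known to switch on, had 17, 35 and 47 reads in aar2-1, 32, 21 and 26 reads in aar2-2, and 3, 1 and 0 reads in WT. AGL42, a MADS-box gene, had 4, 4 and 2 reads in aar2-1, 3, 10 and 3 reads in aar2-2, and 9, 15 and 7 reads in WT. TCL1, a repressor of trichomes, had 14, 7 and 17 reads in aar2-1, 6, 9 and 2 reads in aar2-2, and 16, 12 and 21 reads in WT. AP1 was thus higher in both mutants, while AGL42 in aar2-1 and TCL1 in aar2-2 were below all WT libraries in CPM. With no filter on low values limma called AP1 higher in both (adjusted p = 0.00286 in aar2-1 and 0.0107 in aar2-2), AGL42 lower in aar2-1 (0.0425) and TCL1 lower in aar2-2 (0.02). The 3 flower organ genes checked were at most 0.703 CPM (AP3), 0.617 CPM (PI) and 0.397 CPM (AG) in any library. AP3 had 5 to 22 reads per library in aar2-1, 6 to 13 in aar2-2 and 0 to 4 in WT. In CPM its mutant libraries were all above WT, while PI and AG overlapped between all genotypes. With no filter on low values limma called AP3 higher in aar2-1 (0.46, adjusted p = 0.031) and not in aar2-2 (0.27, adjusted p = 0.172). PI and AG were called in neither mutant. The part of these flower organ genes in the higher FT, FUL, LFY and AP1 was not tested.

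**Figure D5:**
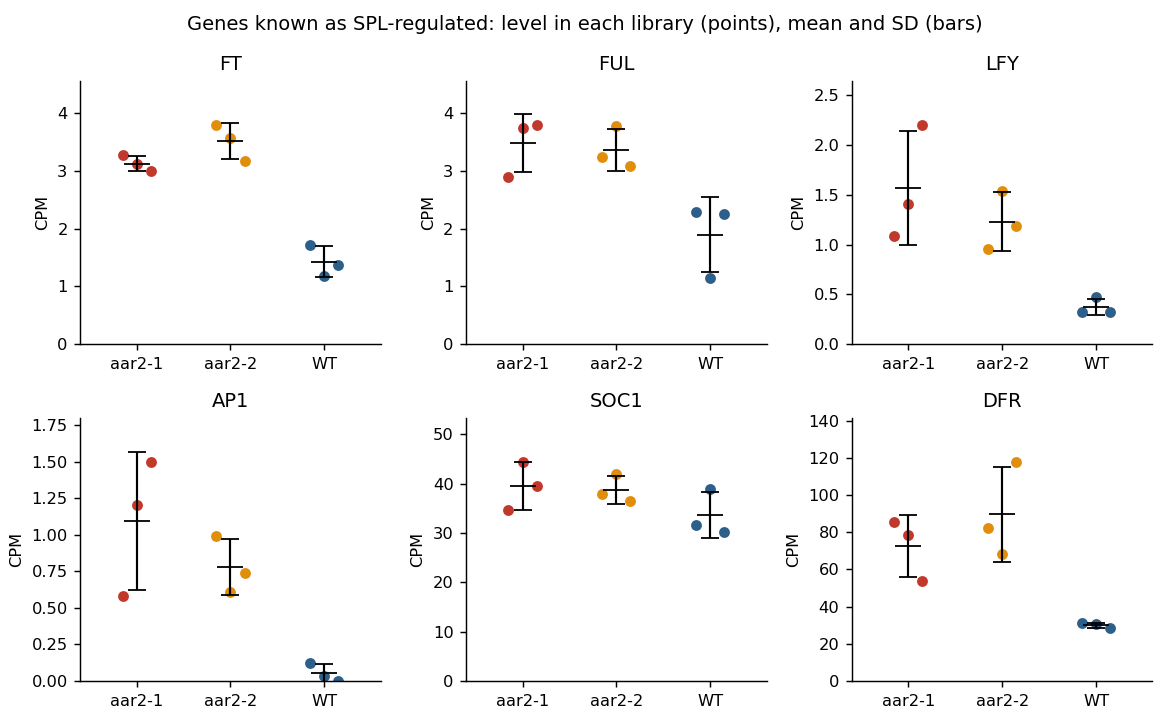
CPM in every library (points) for 6 genes known as regulated by SPL proteins, in aar2-1, aar2-2 and WT, with the mean and SD (bars, n = 3) and each panel on its own axis from 0. FT, FUL, LFY, AP1 and DFR are higher in all 6 mutant libraries than in the 3 WT libraries, and SOC1 overlaps. Over all genes tested, 13.2% were higher in this way. AP1, below the mean of 1 CPM, is not among the genes tested, and LFY is among them through its mutant libraries. The 6 genes are a choice from the 14 listed. AP2, TRY, TCL1 and AGL42, each lower on average in both mutants, are among those not drawn.

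The precursors of miR156 and miR157 were not analysed here. Of 6 core genes of microRNA production and action, 0 rose and 1 fell in aar2-1, and 1 rose and 2 fell in aar2-2, beside 25.1% and 21.5% of all genes tested that were called. DCL1, the enzyme that cuts microRNA precursors, fell in both, at 29.4 CPM in aar2-1, 29.2 CPM in aar2-2 and 34.6 CPM in WT (log2 fold change -0.23, adjusted p = 0.0175, and -0.24, adjusted p = 0.0172). It shares 788 exonic bases with AT1G03993 on the other strand. Its adjusted p in aar2-1 became 0.0518 without WT replicate 1 and 0.0525 without WT replicate 3. In aar2-2 it became 0.0521 without WT replicate 1, 0.0536 without aar2-2 replicate 1 and 0.0582 without aar2-2 replicate 3. The other calls, named after their values were seen, were in aar2-2 SE, a partner of DCL1, higher (0.18, adjusted p = 0.0411) and AGO1, the protein that microRNAs guide, lower (-0.21, adjusted p = 0.0338). In aar2-1 neither was called, at 0.11 for SE (adjusted p = 0.15) and -0.17 for AGO1 (adjusted p = 0.057). Between the mutants SE differed by 0.07 (adjusted p = 0.567) and AGO1 by -0.03 (adjusted p = 0.794), so a change of aar2-2 alone was not shown.

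Over the 9 libraries, SPL4 and SPL13A followed SPL2 most closely among the other members, with Pearson's r of 0.88 and 0.80 on log2(CPM + 1). SPL6 gave 0.68 and SPL9 -0.80, and the other members lay between -0.29 and 0.11. Among all genes tested, the 5 with the highest r to SPL2 were AT4G24015 (0.988), annotated as a RING/U-box protein, AT4G19420 (0.986), a pectin acetyl esterase, AT1G04985 (0.985), AT3G44635 (0.985) and AT5G24810 (0.983), an ABC1 family protein. These values describe 9 points that share their genotypes and library depths.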

How the data were processed

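The values deposited per library are CPM, reads per gene scaled by the library total, a unit inferred from the values because no file header states it. The submitters' processing notes name featureCounts 1.64, DESeq2 and TAIR10, without role or order, and no strand setting is stated. Within a library 1 read was worth 0.0284 to 0.0409 CPM, and at this step 99.8472% to 100.0000% of the values in a library gave whole reads within 0.01 read, so depth is known. The limma intervals and tests rest on the spread between biological replicates, 3 per genotype. In the main fit this spread is pooled over the genotypes and drawn toward that of other genes. A library can thus move the adjusted p of a comparison it is not part of.

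limma 3.58.1 (eBayes with trend, R 4.3.3) was fitted on log2(CPM + 1) to the 18838 genes averaging 1 CPM or more, with all 9 libraries and 3 group means. P-values were adjusted by Benjamini-Hochberg over all of them, and fold changes understate the change of low genes. Alternatives were TMM or quantile scaling, no filter, a pseudocount of 0.1, only 2 groups, no trend, a replicate block, edgeR 4.0.16 and DESeq2 1.42.0 on the recovered reads, and leaving out each library. Sites were searched in the mRNAs of TAIR10.1, which may differ from the annotation behind the values. Named were all members, all SPL genes without a site, AAR2, list genes called in both mutants, and the 5 genes most like SPL2, plus a few named as chosen after their values were seen. The members and lists were chosen with earlier results of these data known.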

Additional observations from a re-analysis of the deposited data

How the results depend on the processing

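SPL2 kept both calls against WT under all 18 alternatives (log2 fold change 1.05 to 1.21 in aar2-1 and 0.66 to 0.76 in aar2-2). The number of members called in aar2-1 was 3 and became 4 under quantile normalization, with only the 2 groups compared, by edgeR and by DESeq2, 5 with the replicate block, and 2 to 5 when a library was left out. In aar2-2 it was 2 and became 1 under TMM scaling, quantile normalization, no filter, edgeR and DESeq2, 3 with only the 2 groups compared and with the replicate block, and 1 to 3 when a library was left out. The number called in both mutants was 2 and became 1, SPL2, under TMM scaling, quantile normalization, no filter, edgeR and DESeq2, and 1 to 2 when a library was left out. Between the mutants it was 0, and 1 by DESeq2, and 0 to 1 when a library was left out. Over all genes tested, the alternatives other than leaving out a library gave 3924 (only 2 groups) to 5183 (DESeq2) calls in aar2-1. In aar2-2 they gave 3766 (no trend) to 4630 (only 2 groups). Leaving out a library gave 2341 to 4688 calls in aar2-1 (4732 with all), 1746 to 4691 in aar2-2 (4046 with all) and 3 to 176 between the mutants (4 with all), where the replicate block gave 12 and DESeq2 383. Leaving out a library leaves fewer samples, yet some of these fits gave more calls, and the cause of these differences was not tested.

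Same-numbered libraries correlated from -0.191 to 0.518 in their deviations, and differently numbered ones from -0.571 to 0.482. The pairs of replicate 3 were all positive, at 0.22, 0.263 and 0.518. Deviations from a mean of 3 libraries constrain each other, so this check cannot tell whether the numbers pair the libraries. Under the replicate block SPL6 passed in both mutants (adjusted p = 0.0479 in aar2-1 and 0.04 in aar2-2), as did SPL13A in aar2-1 (0.0143) and SPL10 in aar2-2 (0.0396), while SPL4 in aar2-2 did not (0.0542).

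Among the members, signs turned only for differences that were not called. For SPL6 between the mutants the log2 difference of 0.03 became -0.012 under TMM scaling, -0.016 under quantile normalization, -0.007 by edgeR and -0.002 by DESeq2. Leaving out a library gave ranges that crossed 0 for SPL6 (-0.081 to 0.10), SPL5 (-0.18 to 0.081) and SPL15 (-0.13 to 0.004) between the mutants, for SPL3 (-0.046 to 0.19), SPL5 (-0.18 to 0.074), SPL10 (-0.029 to 0.14) and SPL15 (-0.095 to 0.038) in aar2-1, and for SPL9 in aar2-2 (-0.21 to 0.047). SPL15 and SPL5 rest on 58 to 83 and 65 to 116 reads per library, which limits what could be detected for them.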

Other observations

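Ratios of CPM between related members, which share the site sequence, described the balance within each branch of the family and were not tested. SPL2 over SPL10 was 3.29 ± 0.80 in aar2-1, 1.95 ± 0.36 in aar2-2 and 1.48 ± 0.16 in WT (SD, n = 3 each). SPL2 over SPL11 was 5.32 ± 1.83 in aar2-1, 3.05 ± 0.29 in aar2-2 and 2.03 ± 0.44 in WT. The ratio of SPL10 to SPL11 was 1.59 ± 0.31 in aar2-1, 1.59 ± 0.18 in aar2-2 and 1.36 ± 0.18 in WT. SPL9 over SPL15 was 2.18 ± 0.49 in aar2-1, 3.35 ± 0.59 in aar2-2 and 3.29 ± 0.48 in WT.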
